A study of Homo sapiens with 4 samples.

Results

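SRP RNA, also called 7SL RNA, was examined in small RNA libraries of small extracellular vesicles, membrane-bound particles shed by cells. The features were selected on their annotated type and their measured counts: the deposited annotation types them as SRP RNA, and their counts over the 4 libraries sum to 1 or more. These were 52 of 163 SRP RNA features, among 46090 features with a count and 155642 features in all. The vesicles came from the established human cell line HT29, a colon cancer line that carries a mutant p53, at passages 5 to 15. The control group held 2 libraries from cells with a non-targeting shRNA, and the p53 shRNA group held 2 libraries from cells with an shRNA against p53. Both groups thus carry an shRNA, and no label tells whether libraries of the same group had separate cultures. The p-values therefore cover the spread between these libraries alone, which may be technical. Inserts were size-selected to 18 to 40 nt, so every count is of a fragment, and fewer vesicles with a given RNA cannot be told apart from less of it per vesicle.

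7SL RNA is the scaffold of the signal recognition particle, which binds a signal peptide as it leaves the ribosome and brings the ribosome to the endoplasmic reticulum. RNA polymerase III transcribes it from a few near-identical genes on chromosome 14, and the genome also holds many degenerate copies that arose by retrotransposition. The Alu repeat derives from the ends of 7SL RNA, so parts of its sequence recur throughout the genome. 7SL RNA is known as an abundant RNA of extracellular vesicles, where it is often found as fragments.

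The short stretches of 7SL below are shown because every copy found to hold either of them wholly on its own bases had over 100 counts. They are windows of 18 bases, the length of the shortest inserts, of RN7SL1 (chr14:49586580-49586878, plus strand), from the GENCODE 29 transcript on GRCh38. They are written 5′ to 3′, and all letters are in capitals since the whole window is the shared part.
RN7SL1 window at 74: GAGTTCTGGGCTGTAGTG
RN7SL1 window at 171: TAAGGAGGGGTGAACCGG
The chromosome 13 copy (chr13:45732082-45732356, minus strand) has most counts among the SRP RNA-typed features and holds the window at 171. It shares 33 bases with RN7SL1 at positions 156 to 188, counted from 1 at the 5′ end, and 27 bases at positions 259 to 285. The chromosome 12 copy (chr12:120018900-120019261, plus strand) follows it and shares 19 bases at positions 20 to 38 and 22 bases at positions 256 to 277. RN7SL5P (chr9:9442060-9442347, plus strand), the copy with most counts in the whole family, is typed lncRNA in the annotation and holds both windows. Identity to RN7SL1 over the whole alignment was 68.9% for the chromosome 13 copy, 69.0% for the chromosome 12 copy and 88.7% for RN7SL5P.

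Library totals were 1099694 counts for control replicate 1, 938754 for control replicate 2, 2611032 for p53 shRNA replicate 1 and 1940942 for p53 shRNA replicate 2. A single feature took 27.7% to 43.5% of a library's counts. Of the hairpins of miRNAs of intestinal epithelium, 2 of 8 had a count, with 1, 0, 1 and 2 counts in the 4 libraries in the order just given. The hairpin lists for blood, stroma, muscle and neural tissue, and liver had 0 counts in every library. Mature miRNA features were not used here, so these lists say little about the source of the vesicles. The p53 shRNA replicate 2 library stood apart from the others in the small RNA classes set beside SRP RNA below.

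The 7SL genes themselves carried no count. Over RN7SL1 lie 5 features of the annotation, over RN7SL2 (chr14:49862550-49862849, minus strand) 9, and over RN7SL3 (chr14:49853616-49853914, minus strand) 5. All of these features had 0 counts in all 4 libraries. The SRP RNA features at RN7SL1 and RN7SL2 have no base outside other features, and no feature at the 3 genes that is named RN7SL and typed otherwise has more than 20 such bases. In the whole table the 46090 features with a count were all among the 89115 with a base of their own, strand ignored. The 0 at the 7SL genes is therefore the value of features that overlap each other, and the level of RN7SL1, RN7SL2 and RN7SL3 was not analysed here. Identity to RN7SL1 is 98.3% for RN7SL2 and 97.7% for RN7SL3.

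On chromosome 14, 3 of 6 SRP RNA features had a count, and all 3 are dispersed copies away from the genes. The copy at chr14:34659564-34659878 had 0 and 0 counts in the controls, against 5 and 0 with p53 shRNA. In the same order of libraries the copy at chr14:55285227-55285558, in an intron of FBXO34, had 0, 0, 0 and 4 counts. The copy at chr14:82429872-82430156 had 1, 0, 0 and 2. Each of the 3 was thus seen in only 1 or 2 libraries. A further copy, at chr14:49913493-49913760 and wholly of its own bases, had 0. Chromosome 14 held 12 of the 489 SRP RNA counts (2.45%), against 477 on copies elsewhere.

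As a share of each library's SRP RNA counts, chromosome 14 held 2.08% (95% Wilson interval 0.369% to 10.9%) and 0% in the controls. In control replicate 2, 0 of 53 counts allows a share of up to 5.66% by the limit of 3 counts, and up to 6.76% by the Wilson interval. The p53 shRNA libraries gave 4.72% (2.03% to 10.6%) and 2.13% (0.979% to 4.56%). The means were 1.04% ± 1.47 and 3.42% ± 1.83 (SD, n = 2). The groups did not overlap, but the intervals of all 4 libraries did. The two-sided exact permutation test gave p = 0.333, the smallest p that 2 libraries against 2 allow, and adjusted p = 1 over 15 shares compared. These intervals and limits cover counting error only.

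**Figure D1:**
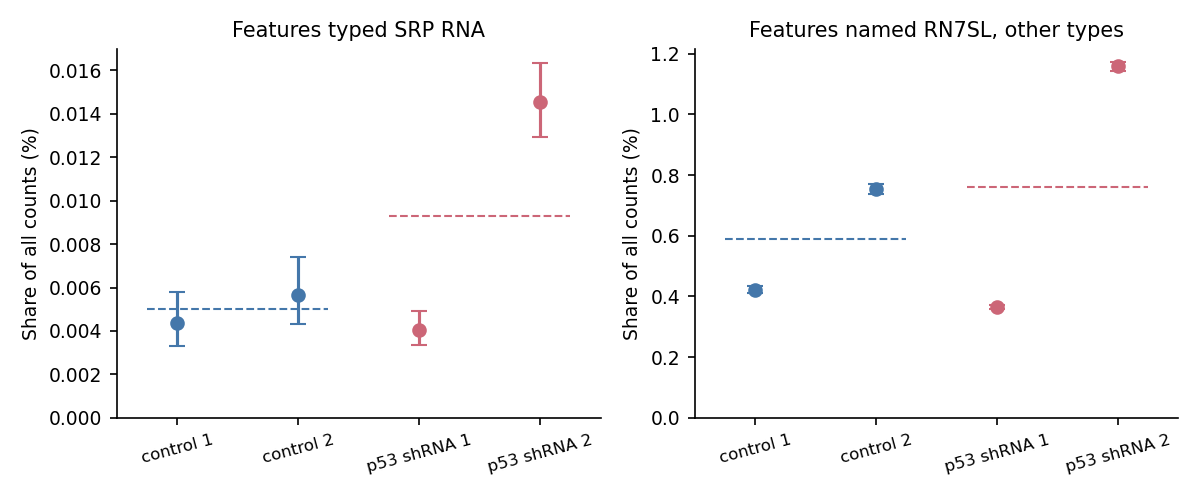
Share of all counts (%) on SRP RNA-typed features (left) and on RN7SL-named features of other types (right) in each library; points are libraries, bars are 95% Wilson intervals and dashed lines are group means. The p53 shRNA replicate 2 library is highest in both panels, at 0.0145% and 1.16%, and the other 3 libraries lie at 0.00406% to 0.00565% and 0.366% to 0.753%.

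SRP RNA-typed features were a very small part of the vesicle libraries. They had 48 and 53 counts in the controls, 0.00436% and 0.00565% of all counts. They had 106 and 282 counts with p53 shRNA, 0.00406% and 0.0145%. The lowest and the highest library were both p53 shRNA libraries, so the groups overlap. The mean share was 0.00501% ± 0.000906 in the controls and 0.00929% ± 0.00740 with p53 shRNA (SD, n = 2). The log2 change of the share, the difference between the group means of the log2 shares, was 0.63 (SE 0.94). The exact permutation test on the shares gave p = 1. The log2 change was 0.14 with library sizes scaled by TMM, edgeR's correction for differences in library composition. Without p53 shRNA replicate 2 it was −0.29. The dispersed copies alone gave a log2 change of 0.59 (SE 0.96).

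Other RNA polymerase III transcripts of vesicles did not follow the same order of libraries. Y RNA, which forms a particle with the Ro60 protein, took 1.30% and 1.46% of counts in the controls, against 1.96% and 0.241% with p53 shRNA. Vault RNA, a part of the large cytoplasmic vault particle, took 1.31% and 0.831% in the controls, against 0.518% and 0.145% with p53 shRNA. The p53 shRNA replicate 2 library was thus the lowest library for both classes and the highest for SRP RNA. Vault RNA did not overlap between the groups, with the smallest possible exact permutation p of 0.333 and adjusted p = 1 over 15 shares. RN7SK, the 7SK RNA that holds a transcription elongation factor inactive, had 5 features and BCYRN1, the brain RNA BC200, had 2. All 7 were at 0, and only 1 of them, at RN7SK, has bases of its own.

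The protein partners of 7SL were sought as features within exons of their genes. The list holds SRP9 and SRP14, which bind the Alu end of the RNA, SRP19, SRP54, SRP68 and SRP72, which bind its other domain, and the receptor subunits SRPRA and SRPRB. Only 3 of the 8 genes had such features, 9 in all, and 4 features had a count. SRP14 had 0, 0, 2 and 1 counts and SRP19 had 0 in each library. SRP68 had 222, 700, 1822 and 1172 counts. In CPM, counts scaled to the same total in every library, that is 202 and 746 in the controls, against 698 and 604 with p53 shRNA, and the groups overlap. These lie on non-coding features that share exon positions with SRP68, and it is not stated whether the counting used strand, so they are no measure of its mRNA.

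Most SRP RNA counts came from a few copies. The chromosome 13 copy held 163 of 489 counts (33.3%), the chromosome 12 copy 105 (21.5%), and the leading 4 together 66.7%. The copies at and below the rule's edge were sparse: 17 of the 52 had 1 count, 29 had 2 to 9 and 6 had 10 or more, and the 111 features left out had 0. Of the 52, 7 were seen in all 4 libraries, 4 in 3, 18 in 2 and 23 in 1. The counts lie on 19 chromosomes.

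Between genes lies the chromosome 13 copy, which had 4 and 28 counts in the controls, against 16 and 115 with p53 shRNA, or 3.64, 29.8, 6.13 and 59.2 CPM. It was high in replicate 2 of each group and low in replicate 1 of each, and the groups overlap. It took 8.33% and 52.8% of the SRP RNA counts of the controls and 15.1% and 40.8% of those with p53 shRNA. These shares differ more within each group than between the group means, 30.6% ± 31.5 and 27.9% ± 18.2 (SD, n = 2).

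The chromosome 12 copy lies in an intron of BICDL1, which encodes an adaptor for dynein transport, on the same strand. It had 10 and 3 counts in the controls, against 32 and 60 with p53 shRNA, or 9.09, 3.20, 12.3 and 30.9 CPM. Its lowest library was control replicate 2, where the chromosome 13 copy had its next-to-highest value. By CPM both p53 shRNA libraries were above both controls. After TMM scaling, edgeR's correction for differences in library composition, the values were 14.8 and 2.97 in the controls, against 11.4 and 25.7 with p53 shRNA, and the groups overlap. Its share of SRP RNA counts was 20.8% and 5.66% in the controls, against 30.2% and 21.3% with p53 shRNA (exact permutation p = 0.333, adjusted p = 1 over 15 shares).

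**Figure D2:**
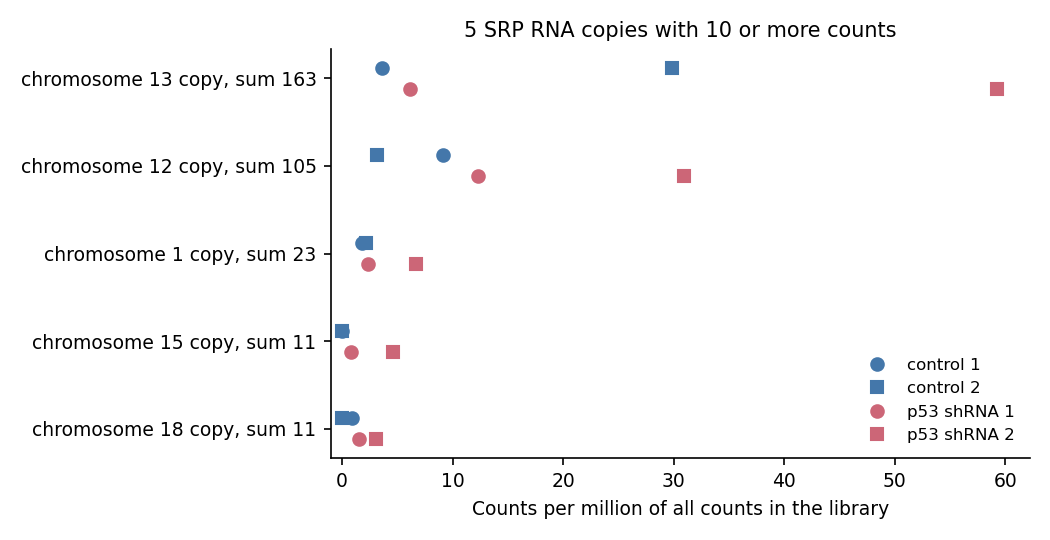
CPM (counts scaled to the same total in every library) for 5 SRP RNA copies with 10 or more counts; colours are groups, and circles and squares are replicates 1 and 2. The chromosome 13 copy is at 29.8 and 59.2 in the replicate 2 libraries and at 3.64 and 6.13 in the replicate 1 libraries, while the chromosome 12 copy is lowest, at 3.20, in control replicate 2.

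Other copies with 10 or more counts had few in most libraries, and the p53 shRNA libraries are the deeper ones. The copy at chr1:117243212-117243508, between genes, had 2, 2, 6 and 13 counts and the highest identity to RN7SL1 among the 52, 81.1%. The copy at chr15:80057425-80057684 had 0, 0, 2 and 9 counts. The copy at chr18:24179038-24179295, in an intron of OSBPL1A, an oxysterol-binding protein gene, had 1, 0, 4 and 6.

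The next 5 copies had 8 counts each. They start at 201097744 and 194658376 on chromosome 2, at 21463963 on chromosome 22, at 11644067 on chromosome 6 and at 46319679 on chromosome 17. The chromosome 17 feature has 2 loci, named RN7SL199P and RN7SL656P, and 3 of the 163 SRP RNA features carry an RN7SL name in GENCODE, against 160 under the Rfam family name RF00017. On the chromosome 22 copy the counts were 1, 2, 3 and 2, spread over all libraries. The chromosome 2 copies had 2, 0, 2 and 4 counts and 0, 0, 3 and 5, in the order given. On the chromosome 17 feature they were 0, 0, 3 and 5, and on the chromosome 6 copy 0, 1, 0 and 7. Most of these single values are at or under 3 counts, the limit that a count of 0 allows.

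More copies were seen with p53 shRNA, in the deeper libraries. The libraries held 24 and 14 SRP RNA features with a count in the controls, against 30 and 31 with p53 shRNA. With every library thinned to the shallowest depth, 21.6 and 14 were expected for the controls against 16.5 and 24.1 for p53 shRNA, and the groups overlap. Of the 52, 10 had counts only in controls (15 counts in all), 23 only with p53 shRNA (66 counts in all) and 19 in both. The matching split over all features with a count is not given here, and it too would depend on depth. By share of counts, 11 copies (21.2%) were higher in both p53 shRNA libraries than in both controls, against 19.9% of all features with a count. The reverse held for 3 copies (5.77%), against 7.97% of all features. These shares are near the background of the table.

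Only 2 of the 52 copies passed edgeR's filter on low counts and were tested among 2780 features. edgeR's quasi-likelihood test called 0 of the 2780 (0%) at an adjusted p under 0.05, so 0 of the 2 copies. At an unadjusted p under 0.05, 4.35% of the features were higher with p53 shRNA and 7.81% were lower, and neither copy was among them. In TMM-scaled CPM neither copy separated the groups, while 41.5% of the features did, 22.9% with higher and 18.6% with lower values under p53 shRNA. The chromosome 12 copy had a log2 change of 1.11 (SE 1.11, edgeR adjusted p = 0.719). For the chromosome 13 copy edgeR gave a log2 change of 0.68 (SE 1.76, adjusted p = 0.879), which was −0.10 without control replicate 1 and −1.42 without p53 shRNA replicate 2. The median over all features tested was 0.05. The DESeq2 Wald test called 37 features, with 0 of the SRP RNA copies among them. An absence of calls says little at this spread: on simulated libraries with the fitted dispersion, 1.33% of the 4-fold and 24.3% of the 16-fold changes were recovered by edgeR among 2780 features.

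The annotation types most of the 7SL family otherwise. Besides the 163 SRP RNA features, 624 features carry an RN7SL name in GENCODE, 623 of them typed lncRNA and 1 scRNA. Of these, 465 had a count, and together they had 43745 counts against 489 on the SRP RNA type. SRP RNA-typed counts were 1.11% of all counts on the family, and 97 RN7SL-named features had more counts than the chromosome 13 copy. The RN7SL-named features took 0.422% and 0.753% of all counts in the controls, against 0.366% and 1.16% with p53 shRNA. That is the library order of the SRP RNA share, with replicate 2 the higher library of each group. SRP RNA-typed counts were 1.03% and 0.749% of RN7SL-named counts in the controls, against 1.11% and 1.25% with p53 shRNA.

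The mean share of the RN7SL-named features was 0.588% ± 0.234 in the controls and 0.762% ± 0.561 with p53 shRNA (SD, n = 2; log2 change 0.21, SE 0.93; exact permutation p = 1). The difference was 0.175 percentage points, but −0.0431 points with TMM-scaled library sizes and −0.222 points without p53 shRNA replicate 2. RN7SL5P had 422, 957, 755 and 1856 counts, which is 384 and 1019 CPM in the controls, against 289 and 956 with p53 shRNA (edgeR log2 change −0.56, SE 0.84, adjusted p = 0.905). RN7SL4P had 222 and 479 CPM in the controls, against 240 and 447 with p53 shRNA (edgeR log2 change −0.44, SE 0.40, adjusted p = 0.930). The edgeR log2 changes are on the TMM scale, unlike these CPM. In TMM-scaled CPM, RN7SL4P had 360 and 446 in the controls, against 224 and 372 with p53 shRNA. Replicate 2 was the higher library of each group for both RN7SL5P and RN7SL4P, and the groups overlap. Of 121 RN7SL-named features tested by edgeR's quasi-likelihood test, 0 were called (0% of all features were). At an unadjusted p under 0.05, 1 of the 121 was higher (RN7SL575P) and 1 lower (RN7SL507P), against 4.35% and 7.81% of all features tested. The median log2 change of the 121 was −0.04, against 0.05 over all features.

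The SRP RNA-typed copies were less like RN7SL1 than the RN7SL-named ones. Median identity to RN7SL1 was 68.5% (56.3% to 81.1%) in the 52 copies with a count and 80.3% in the RN7SL-named features with a count. It was 62.0% in the 100 SRP RNA copies that have bases of their own and no count. Among the 52 it was 73.5% in the 6 copies with 10 or more counts and 64.6% in the other 46. Of all 152 SRP RNA features with bases of their own, 34.2% had a count, against 51.7% of such features in the whole table. By position, 30 of the 52 lie in introns and 22 between genes, and the 100 without a count lie 60 in introns, 38 between genes and 2 in exons.

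**Figure D3:**
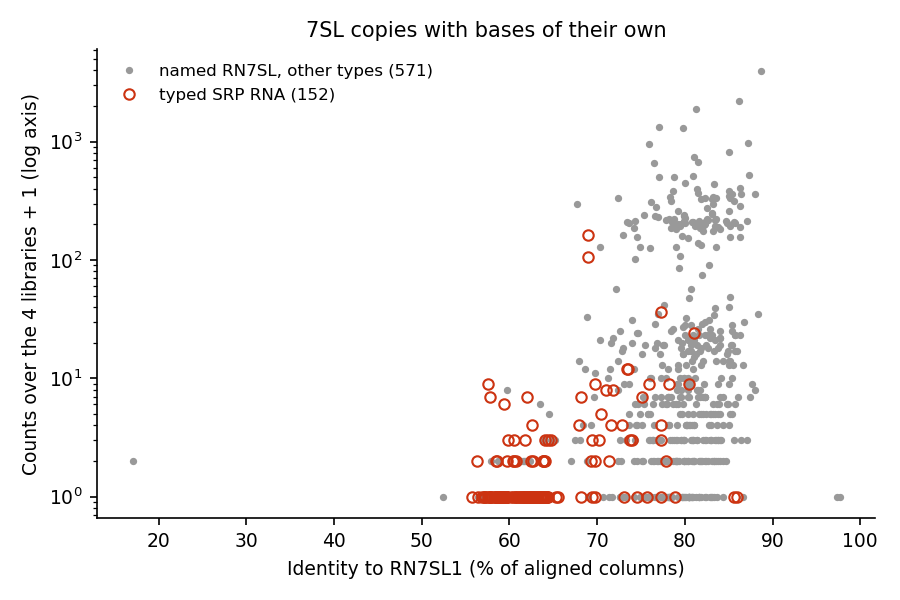
Counts over the 4 libraries plus 1 (log axis) against identity to RN7SL1 (%) for 7SL copies with bases of their own; open red circles are the 152 SRP RNA-typed features and grey points 571 RN7SL-named features. Most SRP RNA-typed copies sit low and to the left, with only 2 above 100 counts, both at 69% identity.

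Spearman's rho between identity and counts was 0.417 over the 152 SRP RNA features with bases of their own, as a description across features that share the same 4 libraries and much of their sequence. For the longest exact run shared with the 7SL genes, rho with the counts was 0.012 over the same 152, 0.164 over the 52 with a count and 0.404 over 571 RN7SL-named features. Of the 52 copies, 33 share a run of 18 bases or more with a 7SL gene on either strand, as do 65 of the 100 without a count. The copy with the longest shared run among the 52, of 34 bases, starts at 62244330 on chromosome 15 and had 3 counts. It falls outside the rule for named copies and was chosen after its values were seen.

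Which stretch of 7SL a copy keeps varied widely. Of the 282 windows of 18 bases in RN7SL1, 82 are in at least 1 of the 52 copies. The windows most often held start at positions 261, 262 and 264 and are each in 9 of the 52. The window at 261 to 278 is also in 11 of the 100 without a count. The copies' own windows are in part also found elsewhere: a median of 61.1% (18.7% to 100%) of the 18-base windows of a copy occur in another GENCODE gene. A fragment of the shortest length could thus often be placed at more than 1 locus, and the treatment of such reads was not stated. The count on a single copy is uncertain for that reason.

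**Figure D4:**
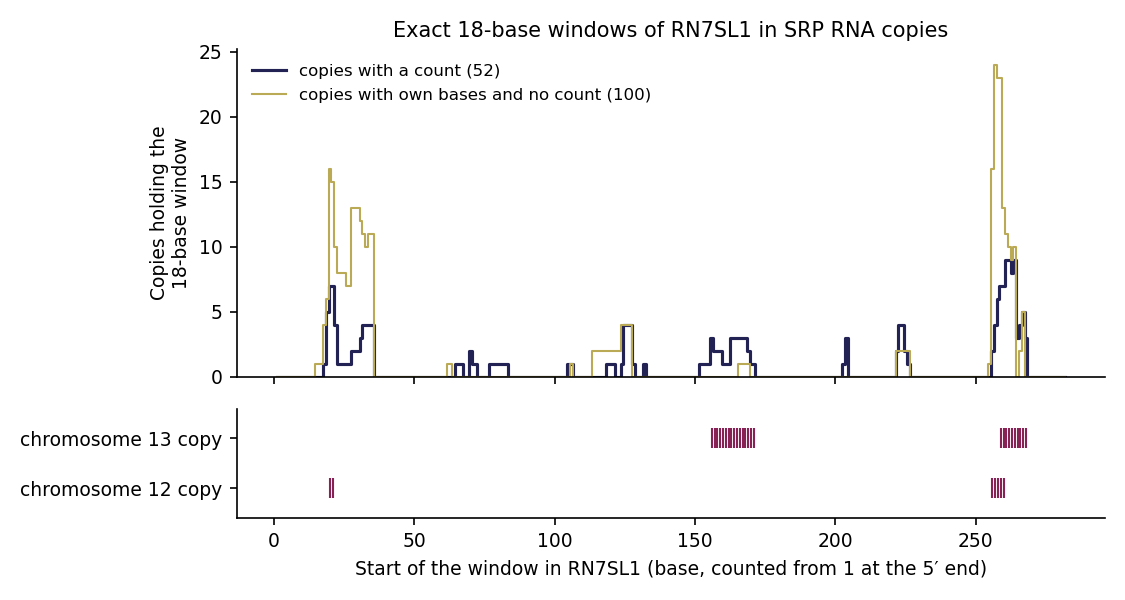
Number of SRP RNA copies that hold each 18-base window of RN7SL1, by the window's start (base, counted from 1 at the 5′ end), for the 52 copies with a count and the 100 with bases of their own and no count; the lower panel marks the windows held by the chromosome 13 and chromosome 12 copies. The windows most often held are near the 3′ end, with a maximum of 9 of the 52 for the windows starting at 261, 262 and 264.

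Median counts on the copies differed between the RN7SL1 windows that they hold. Identity to RN7SL1, with a Spearman's rho of 0.385 to the counts over 571 RN7SL-named features, was not taken into account. Its part in these differences was not tested. This scan of windows, and the limit of 60 counts, were chosen after the counts were seen and are given with no test. It took the 700 copies that lie wholly on their own bases, 146 SRP RNA-typed and 554 RN7SL-named. Of these 117 had 60 or more counts over the 4 libraries, 114 of them 100 or more, while 475 had fewer than 10. Only 2 of the 117 were typed SRP RNA, the chromosome 13 and chromosome 12 copies.

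The RN7SL1 window at positions 74 to 91 was picked from the scan on these same counts. Among windows whose holders all had 60 or more counts, it had the most holders. The lack of holders under 60 follows from that choice, which also bears on the contrast with the other copies. The window is held by 69 copies, and all 69 had 183 or more counts, with a median of 221. The other 631 copies had a median of 2, and 48 of them had 60 or more. None of the 52 SRP RNA-typed copies holds it. The 69 copies took 68.0% and 65.4% of the counts on the 700 copies in the controls, against 56.8% and 59.2% with p53 shRNA. The median copy among them had 24.6 and 36.2 CPM in the controls, against 18.0 and 64.9 with p53 shRNA, so p53 shRNA libraries were both the lowest and the highest.

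The chromosome 13 copy holds another window of this kind, at positions 171 to 188, which is the 3′ part of its 33-base run. This window was picked from the copy's own windows in the same way. It is in 12 copies, 11 RN7SL-named and the chromosome 13 copy, and all 12 had 163 or more counts, with a median of 511.5. Of the 12 the chromosome 13 copy had the fewest. RN7SL5P, RN7SL4P, RN7SL838P, RN7SL674P and RN7SL40P are among the 11 and hold both windows, so the sets of holders overlap. In CPM all 12 were higher in both replicate 2 libraries than in both replicate 1 libraries, whatever the group. The same held for 64 of the 69 holders of the window at 74, which the chromosome 13 copy lacks. The matching share over all features is not given here. As these copies have stretches of sequence in common, they are not separate observations. The median copy of the 12 had 51.8 and 136 CPM in the controls, against 17.04 and 148 with p53 shRNA. Other windows of the chromosome 13 copy varied. Its window at 170 is in 10 copies with a median of 589.5 counts. Those at 160 and 264 are in 105 and 97 copies, with medians of 22 and 4. The chromosome 6 copy that starts at 11644067 holds the window at 72, whose other 60 holders had a median of 221.5, but had 8 counts itself.

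The chromosome 12 copy holds neither the window at 74 nor that at 171. It does hold the window at positions 257 to 274, which is in 116 copies with a median of 2 counts, 20 of them with 60 or more.

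**Figure D5:**
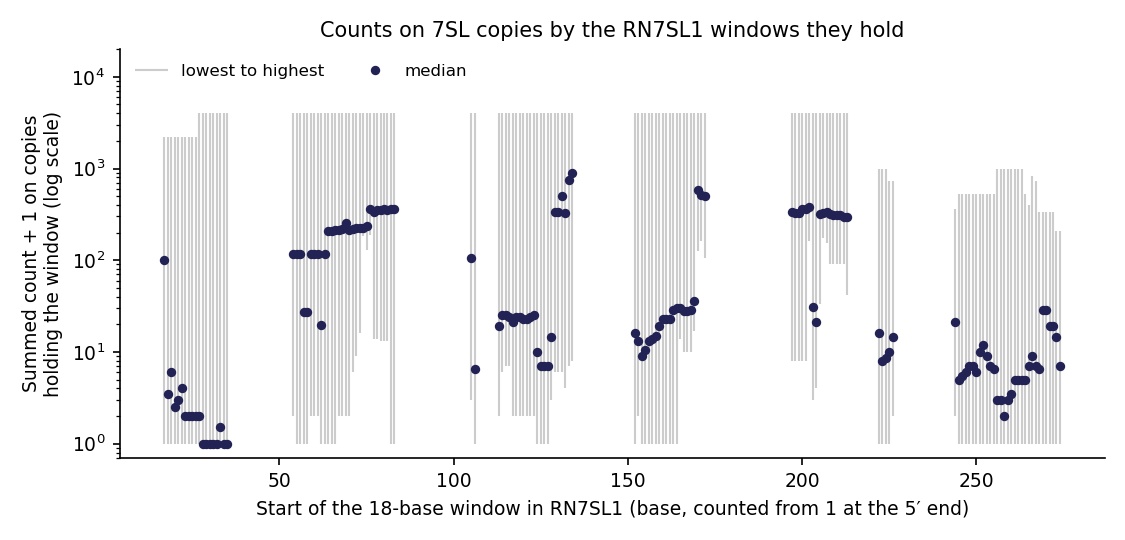
Summed counts over the 4 libraries plus 1 (log axis) on the copies that hold each 18-base window of RN7SL1, by the window's start (base, counted from 1 at the 5′ end), for windows in 10 or more of 700 copies; points are medians and grey lines run from the lowest to the highest copy. The window at 74, picked for having no holder under 60 counts, has a median of 221 and no copy under 183. The windows near 257 have medians of a few counts.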

How the data were processed

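Small RNA was sequenced from vesicles of HT29 cells, 2 control and 2 p53 shRNA libraries grouped by GEO's labels. The authors deposited raw counts per annotated RNA. The tools named in the submitters' processing notes are bcl2fastq 2.19, BWA 0.7.17 and Subread 1.6.3, with build GRCh38. For reads with several placements or features, the counting rule was not given in the sources used here. The table covers chromosomes 1 to 22. A further 26 SRP RNA identifiers of the annotation, with no chromosome name there, were not analysed here. The precision of each share is set by its counts, given with it.

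Features were matched to GENCODE 29 transcripts by exact coordinates (163 of 163 SRP RNA features), and identity to RN7SL1 was taken from a global alignment with edlib 1.3.9. Bases of a feature outside every other feature were counted with strand ignored, and windows of 18 bases were searched on the transcribed strand or, for runs shared with the 7SL genes, on both. Places used bedtools 2.31.1. The whole table was tested with edgeR 4.0.16 (quasi-likelihood, TMM, edgeR's filter on low counts, 2780 features, Benjamini-Hochberg at 0.05) in R 4.3.3. CPM are scaled to library totals unless named TMM-scaled. The SE of a single feature belongs to the difference in mean log2 TMM-scaled CPM (prior count 2). The log2 change and SE of a sum or share are of the difference in mean log2 percent of library totals. Shares were tested by exact permutation, two-sided and adjusted over 15 shares. Alternatives were DESeq2 1.42.0 (size factors and Wald test), limma 3.58.1 voom, library totals, a block by replicate number, other filters, other denominators, the largest copy left out, and each library left out. Those on RN7SL-named features and on the sum without the leading 2 copies were added after the data were seen. edgeR was tested on simulated data in 3 runs of 2780 features with 200 changed: at low dispersion 93.7% of the 4-fold and 100% of the 16-fold changes were recovered.

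The rule for copies named takes every chromosome 14 copy with a count, the 10 with most counts (with ties) and those passing edgeR's filter, except 1 copy among the 10, which is not reported here. RN7SL-named features were named after their values were seen. The members and lists were chosen with earlier results of these data known.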

Additional observations from a re-analysis of the deposited data

How the results depend on the processing

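The 0 calls among SRP RNA and RN7SL-named features held in all alternatives of the edgeR fit, limma voom and DESeq2 included. Over all features the count rose from 0 to 37 (1 higher, 36 lower) with the DESeq2 Wald test and to 103 (12 higher, 91 lower) with the replicate block. No label tells whether same-numbered libraries were handled together. Over the 2780 features tested, the deviations of same-numbered libraries from their group means correlated at 0.395. Leaving out a library moved the difference in the SRP RNA share (p53 shRNA minus control, percentage points) between −0.000946 and 0.00952, and the log2 change of the sum between −0.29 and 1.55. Both were below 0 only without p53 shRNA replicate 2, as was the log2 change without the leading 2 copies (−0.28 to 1.03, 0.38 with all libraries). The RN7SL-named difference of 0.175 points ran from −0.222 to 0.571 and was −0.0431 with TMM-scaled library sizes. The difference in features with a count at one depth (2.50) ran from −2.07 without control replicate 2 to 6.32, and was −1.33 without p53 shRNA replicate 2. The chromosome 14 share difference (2.38 points) ran from 1.09 to 3.68 and was 0 among copies with 10 or more counts, where chromosome 14 has none. The log2 change of the chromosome 13 copy was −0.10 without control replicate 1 and −1.42 without p53 shRNA replicate 2, with 2.40 the highest. That of the chromosome 12 copy stayed above 0, from 0.49 to 2.50. Scaling by library totals moved the median log2 change of all features tested from 0.05 to 0.49. The median of the RN7SL-named features tested, −0.04 in the main fit, was 0.47 with library totals. It was 0.76 without p53 shRNA replicate 1 and −1.03 without p53 shRNA replicate 2. For the calls, shares, sums, feature numbers and the chromosome 12 and 13 copies, the other alternatives kept direction and side of the threshold. Depth limits every single copy: 46 of 52 had under 10 counts.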
